A study of Rattus norvegicus with 12 samples.

Results

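The genes described here are 10 markers of adipocytes, the fat-storing cells of adipose tissue, as they were read in RNA from sections of rat heart. They were taken by gene symbol from the count table, and all 10 were found among its 30560 genes: Adipoq, Plin1, Plin4, Cidec, Cfd, Lep, Retn, Pparg, Fabp4 and Ucp1. The sections came from male Wistar rats aged 7 weeks at surgery. In the Sham group (4 rats) the chest was opened and no ligature was passed around the left anterior descending coronary artery. In the MI group (4 rats) that artery was permanently tied to cause a myocardial infarction. Both groups were then given the vehicle, carboxymethylcellulose, by gavage for 8 weeks. The MI + UA group (4 rats) had the same ligation and received urolithin A (UA), a metabolite that gut bacteria make from plant ellagitannins, over the same weeks. All rats were fasted overnight before the hearts were stopped, the atria were removed, and RNA was taken from fixed, paraffin-embedded blocks of the middle left ventricle, with 1 library per rat. Whether fat on the heart surface was trimmed is not given in the sources used here. The comparison of MI with Sham asks what infarction changed, and that of MI + UA with MI what UA changed in infarcted hearts. MI + UA was also set against Sham, and these comparisons share rats.

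White adipocytes hold 1 large lipid droplet, which perilipin 1 (Plin1) and Cidec coat and enlarge, and they secrete adiponectin (Adipoq), leptin (Lep), adipsin (Cfd) and, in rodents, resistin (Retn). Their gene programme is switched on by the nuclear receptor Pparg, and brown adipocytes also make the uncoupling protein Ucp1, which turns fuel into heat. Some of these markers are shared with other cells of the heart: Fabp4, a fatty acid carrier, is also made in capillary endothelium and macrophages, Pparg in endothelium and macrophages, and Plin4 in striated muscle. In the heart, adipocytes lie mainly in the fat under the epicardium and along the coronary vessels.

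To show where transcription of the scarcest markers begins, promoter sequences are given for Adipoq and Plin1, the white-fat genes with the most counts among the scarce ones, and for Retn, whose reads came only from the libraries of rats 36 and 29. They are from RefSeq (rat build GRCr8), 5′ to 3′ on the gene's strand, and run from 250 bases before the transcription start to 50 bases after it, or 300 bases. Capitals mark the letters CCAAT, or ATTGG where CCAAT is on the other strand, in Adipoq and Plin1, and AGGTCA, the half-site of nuclear receptors, in Retn. The Adipoq window is at chr11:91240120-91240419 on the minus strand, the Plin1 window at chr1:143086099-143086398 on the minus strand, and the Retn window at chr12:6508524-6508823 on the plus strand.
Adipoq: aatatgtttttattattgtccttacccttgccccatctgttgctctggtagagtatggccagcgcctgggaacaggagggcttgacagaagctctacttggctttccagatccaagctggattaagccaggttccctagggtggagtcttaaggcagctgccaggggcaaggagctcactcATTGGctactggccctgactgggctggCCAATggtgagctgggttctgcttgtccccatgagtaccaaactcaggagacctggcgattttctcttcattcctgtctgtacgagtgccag
Plin1: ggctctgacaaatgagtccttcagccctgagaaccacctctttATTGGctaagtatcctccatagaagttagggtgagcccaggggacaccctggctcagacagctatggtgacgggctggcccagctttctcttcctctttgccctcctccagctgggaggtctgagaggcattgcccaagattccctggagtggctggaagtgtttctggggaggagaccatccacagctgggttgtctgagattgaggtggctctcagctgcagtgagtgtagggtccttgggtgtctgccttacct
Retn: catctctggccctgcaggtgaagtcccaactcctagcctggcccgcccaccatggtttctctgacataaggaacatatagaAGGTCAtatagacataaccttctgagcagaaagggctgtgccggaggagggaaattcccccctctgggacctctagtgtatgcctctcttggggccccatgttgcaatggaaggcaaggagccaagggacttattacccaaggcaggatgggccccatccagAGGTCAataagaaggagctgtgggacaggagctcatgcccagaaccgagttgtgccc
The 2 Adipoq matches begin 69 and 42 bases before the start, the Plin1 match 207 bases before it, and the 2 Retn matches 169 and 7 bases before it. Of the 10 genes, 9 were matched in the table of RefSeq promoters used here, and Fabp4 was not. Searched on both strands, CCAAT was in the windows of Adipoq, Plin1, Lep and a second start of Pparg, and in 37.5% of all 33469 rat promoters. AGGTCA was found in Retn alone among the 9, and in 16.2% of all promoters. The PPAR-RXR direct repeat, AGGTCA copied with 1 free base between the copies, which Pparg and its partner bind, was in the windows of 0 of the 9 genes and in 0.0538% of all promoters. TATAAA was in Pparg and Ucp1 and in 14.2% of all promoters. A match is a description of the letters only.

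Libraries held 6228706 to 19031695 reads on genes (median 8649110), which were 42.9% to 48.3% of the reads counted. A level is given below in CPM, the reads of a gene relative to the library's size after scaling by the TMM method of edgeR (counts per 1000000). The floor, set at 3 reads, was worth 0.169 to 0.505 CPM in a library. CPM is not divided by gene length, so levels are compared between rats and not between genes. The libraries of rat 36 (MI) and rat 29 (MI + UA) stood apart from the other 10 in the scarce markers, so each result that rests on them is given with and without them. Rat 66 is MI + UA by its label, but the study's echocardiography records list it with vehicle-treated MI rats; it was counted by its label.

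Of the 10 markers, 6 were nearly absent. Adipoq, Plin1, Cidec, Lep, Retn and Ucp1 together had 89 reads in 12 libraries, and 71 of them (79.8%) were in rats 36 and 29, whose libraries held 24.8% of all reads on genes. The 6 genes had 53 reads in rat 36, 18 in rat 29, 5 in rat 89 (MI) and 4 in rat 58 (MI + UA), and 0 to 2 in each of the other 8 libraries. Rat 36 had reads of all 6 and rat 29 of 5, without Cidec. The Sham libraries had 2, 1, 0 and 2 reads, so adipocyte-restricted transcripts were at or under the floor in every Sham heart section.

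**Figure D1:**
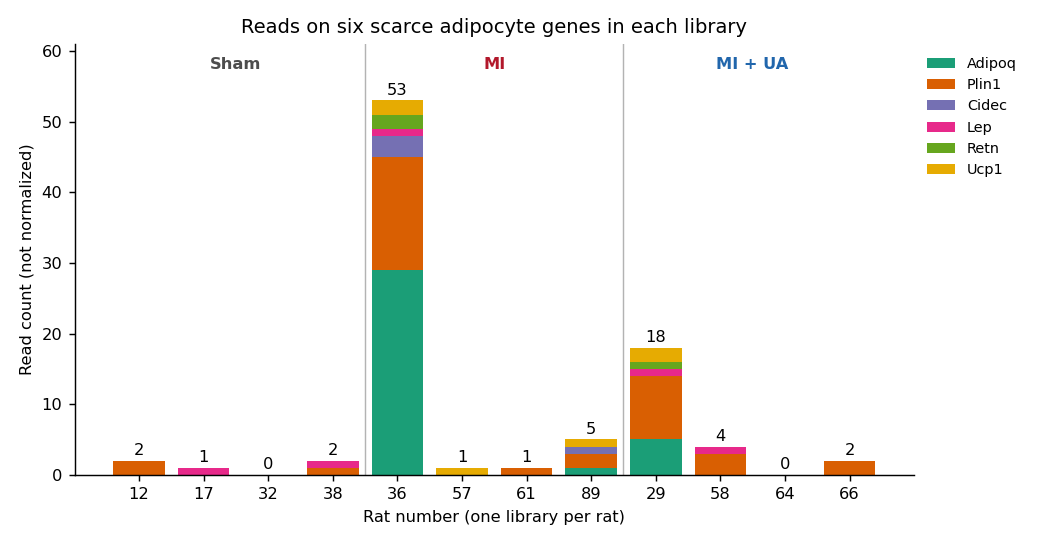
Reads on Adipoq, Plin1, Cidec, Lep, Retn and Ucp1 (vertical axis, read count without normalization) stacked for each rat's library (horizontal axis, by group). Rat 36 (MI) reaches 53 reads and rat 29 (MI + UA) 18, and the other 10 libraries hold 0 to 5.

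Adipoq (ENSRNOG00000001821), which encodes the hormone adiponectin, had 35 reads in all. All 4 Sham libraries had 0. In MI, rat 36 had 29 reads, rat 89 had 1, and rats 57 and 61 had 0. In MI + UA, rat 29 had 5 reads and rats 58, 64 and 66 had 0. The 29 reads of rat 36 came to 2.12 CPM, with an exact (Clopper-Pearson) 95% interval of 1.42 to 3.04, and the 5 reads of rat 29 to 0.286 CPM (0.0928 to 0.667). Such intervals cover counting error only. Pooled over the group, MI was at least 6.96-fold higher than Sham, counting 30 reads against a floor of 3 reads over the 4 Sham libraries, and 29 of the 30 were from 1 rat. Without rat 36 the MI libraries held 1 read, which is under the floor, and no fold can be given. Adipoq did not pass the test in MI versus Sham (edgeR quasi-likelihood test, Benjamini-Hochberg adjusted p = 0.0965; two-sided exact permutation p = 0.429), and the groups overlapped at 0. With all genes kept, however low, the adjusted p was 0.0262, and over all alternatives that gave one it ran from 0.0262 to 0.241. MI + UA had 5 reads against 30 in MI, a ratio of 0.139 with a counting interval of 0.0420 to 0.361 (edgeR adjusted p = 0.9998). Without rat 36 the direction turned, with 5 reads in MI + UA and 1 in MI, and without rats 36 and 29 there were 0 and 1.

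Plin1 (ENSRNOG00000015086), the perilipin of the white-fat droplet, had 36 reads in 8 libraries, 25 of them (69.4%) in rats 36 and 29. Sham rats 12, 17, 32 and 38 had 2, 0, 0 and 1 reads. MI rats 36, 57, 61 and 89 had 16, 0, 1 and 2. MI + UA rats 29, 58, 64 and 66 had 9, 3, 0 and 2. The 3 groups overlapped, and outside rats 36 and 29 no library had more than 3 reads. The ratio of MI to Sham reads was 4.41, with a counting interval of 1.30 to 23.3, and the log2 difference of 1.89 (standard error 1.14) did not pass the test (edgeR adjusted p = 0.339). Without rat 36 that log2 fold change was 0.023, and without rats 36 and 29 it was 0.011. MI + UA differed from MI by -0.59 on the log2 scale (standard error 0.88, edgeR adjusted p = 0.9998), and it changed sign to 1.28 without rat 36 and to 0.55 without rats 36 and 29.

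Cidec (ENSRNOG00000009153), which promotes the fusion of lipid droplets, had 4 reads, 3 in rat 36 and 1 in rat 89. Retn (ENSRNOG00000001001) had 2 reads in rat 36 and 1 in rat 29. Lep (ENSRNOG00000045797), the satiety hormone that fat secretes, had 1 read in each of rats 17 and 38 (Sham), 36 (MI), 29 and 58 (MI + UA). Ucp1 (ENSRNOG00000003580) had 2 reads in each of rats 36 and 29 and 1 in each of rats 57 and 89. Cidec, Retn and Ucp1 had 0 reads in Sham and were grouped for that, so all 13 of their reads were from infarcted hearts. Lep had 2 of its 5 reads in Sham. The infarcted hearts held 73.9% of all reads on genes, and no difference can be read from genes chosen this way. Rats 36 and 29 had 10 of the 13, and 3 were left without them. These 4 genes had fewer than the 10 reads in total that the test required. When all genes were kept, their edgeR adjusted p-values in the 3 comparisons ran from 0.334 upwards. Differences between groups in these 4 genes were not detectable at this depth.

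The other 4 markers were read in every library: Plin4, Fabp4, Pparg and Cfd. Rats 36 and 29 held 20.3% (Fabp4) to 23.5% (Pparg) of their reads, against 24.8% of all reads on genes. Their shares in the libraries where Adipoq and Plin1 stood apart were thus near that of all reads, and which cells their reads came from was not tested. In bulk RNA of this kind, fewer cells of a type and less RNA per cell cannot be told apart.

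Plin4 (ENSRNOG00000047046), a perilipin that coats small lipid droplets, was lower in infarcted hearts, with or without UA. It was at 177, 167, 186 and 204 CPM in the Sham rats 12, 17, 32 and 38. The MI rats 36, 57, 61 and 89 were at 131, 141, 127 and 137 CPM, and the MI + UA rats 29, 58, 64 and 66 at 139, 119, 104 and 165 CPM. Every Sham rat was above every infarcted rat, and the MI and MI + UA rats overlapped. Mean levels were 184 ± 15.7 CPM in Sham, 134 ± 6.29 in MI and 132 ± 26.2 in MI + UA (SD, n = 4 each). Plin4 fell by 0.46 on the log2 scale in MI versus Sham (standard error 0.11, edgeR adjusted p = 0.00829), or to 0.728 of the Sham level. It fell by 0.47 in MI + UA versus Sham (standard error 0.11, edgeR adjusted p = 0.00785). The exact permutation test gave p = 0.0286 for both, the smallest that 4 rats against 4 allow, and 0.171 after adjustment over the 18 tests of 6 genes in 3 comparisons. Between MI + UA and MI the log2 fold change was -0.02 with a 95% interval of -0.24 to 0.21 (edgeR adjusted p = 0.9998). With rat 66 counted in MI it was -0.21 (edgeR unadjusted p = 0.0557, adjusted p = 0.9998). Plin4 overlaps 1 other gene in RefSeq, Hdgfl2, and the strand setting of the read counting is not given in the sources used here.

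Fabp4 (ENSRNOG00000010805), the fatty acid carrier, was lower in MI + UA than in Sham. Sham rats 12, 17, 32 and 38 were at 148, 110, 140 and 150 CPM. MI rats 36, 57, 61 and 89 were at 93.5, 110, 124 and 125 CPM, and MI + UA rats 29, 58, 64 and 66 at 83.1, 87.7, 101 and 105 CPM. The MI + UA rats were all below the Sham rats, while the MI rats overlapped both groups, with rat 17 the low one in Sham. Mean levels were 137 ± 18.5 CPM in Sham, 113 ± 14.6 in MI and 94.3 ± 10.6 in MI + UA (SD, n = 4 each). In MI + UA versus Sham the fall was 0.54 on the log2 scale (standard error 0.11, edgeR adjusted p = 0.00341; exact permutation p = 0.0286, the smallest possible, and 0.171 after adjustment over 18 tests). In MI versus Sham the log2 fold change was -0.28 (standard error 0.11), which did not pass the test (edgeR adjusted p = 0.124). Without Sham rat 17 it was -0.37 and passed (edgeR adjusted p = 0.0372), and over all alternatives the adjusted p ran from 0.0372 to 0.320. For MI + UA versus MI it was -0.26, with a 95% interval of -0.49 to -0.03 (edgeR unadjusted p = 0.0288, adjusted p = 0.9998).

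**Figure D2:**
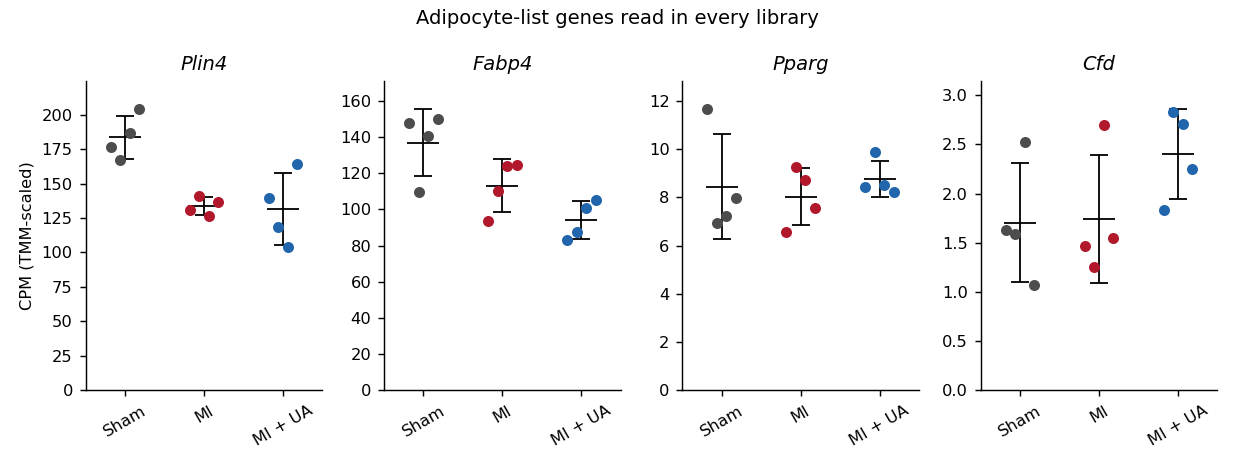
Levels of Plin4, Fabp4, Pparg and Cfd in CPM (vertical axes, from 0) by group, 1 point per rat, with the mean and SD of 4 rats as bars. All Sham points of Plin4 are above the infarcted rats, those of Fabp4 are above the MI + UA rats, and the groups overlap for Pparg and Cfd.

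Pparg (ENSRNOG00000008839), the receptor that directs adipocyte formation, was at 8.45 ± 2.19 CPM in Sham, 8.03 ± 1.19 in MI and 8.77 ± 0.757 in MI + UA (SD, n = 4 each). Sham rats 12, 17, 32 and 38 were at 11.7, 6.93, 7.24 and 7.99 CPM, MI rats 36, 57, 61 and 89 at 6.58, 9.25, 8.72 and 7.58, and MI + UA rats 29, 58, 64 and 66 at 8.46, 9.89, 8.53 and 8.21. The highest Pparg level, in Sham rat 12, and the lowest, in MI rat 36, were both outside the range of the MI + UA rats, and all 3 groups overlapped. Its log2 fold changes were -0.10 in MI versus Sham (95% interval -0.46 to 0.26), 0.14 in MI + UA versus MI (-0.21 to 0.48) and 0.03 in MI + UA versus Sham (-0.32 to 0.39), none past the test (edgeR adjusted p = 0.792, 0.9998 and 0.939).

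Cfd (ENSRNOG00000033564) encodes adipsin, the complement factor D that fat secretes in quantity, and it had 235 reads in all. Sham rats 12, 17, 32 and 38 were at 1.63, 1.59, 2.52 and 1.07 CPM, from 9 to 15 reads each. MI rats 36, 57, 61 and 89 were at 1.46, 1.25, 2.70 and 1.55 CPM, and MI + UA rats 29, 58, 64 and 66 at 1.83, 2.83, 2.71 and 2.25. Rat 36, which had the most Adipoq reads, was not high in Cfd, and the groups overlapped. Mean levels were 1.70 ± 0.603 CPM in Sham, 1.74 ± 0.650 in MI and 2.40 ± 0.456 in MI + UA (SD, n = 4 each). The log2 fold change was 0.07 in MI versus Sham (95% interval -0.63 to 0.76), 0.42 in MI + UA versus MI (-0.21 to 1.05) and 0.49 in MI + UA versus Sham (-0.18 to 1.16), and none passed the test (edgeR adjusted p = 0.936, 0.9998 and 0.408).

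**Figure D3:**
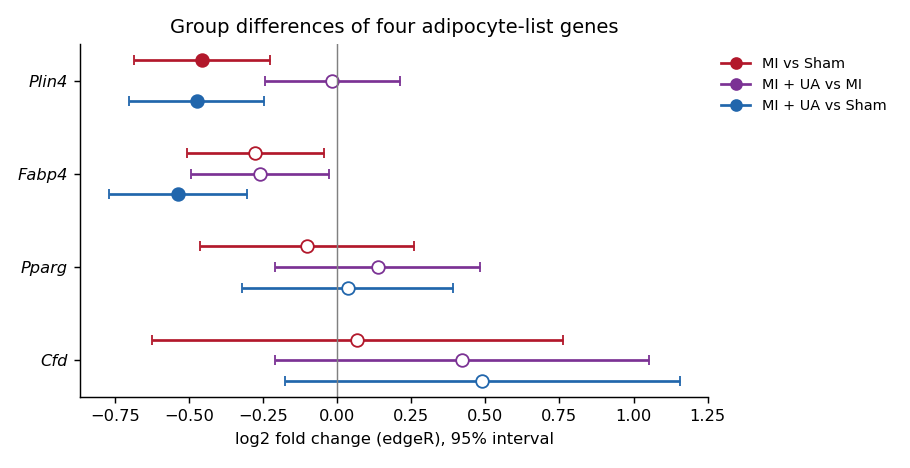
Log2 fold changes of Plin4, Fabp4, Pparg and Cfd (horizontal axis) with 95% intervals from edgeR, in MI versus Sham, MI + UA versus MI and MI + UA versus Sham; filled points have an adjusted p under 0.05. The filled points are Plin4 in MI versus Sham (-0.46) and in MI + UA versus Sham (-0.47) and Fabp4 in MI + UA versus Sham (-0.54).

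Of the 10 markers, 6 had enough reads to be tested among 18182 genes. Comparing MI with Sham, 1 of them passed the test, Plin4, which was lower. Among all tested genes 11.4% passed, 5.82% as higher and 5.53% as lower. An unadjusted p under 0.05 was found for 3 markers (Plin4, Adipoq and Fabp4) and for 23.9% of all tested genes. Adipoq reached the 10 reads needed for the test through rat 36 and was not tested without that rat, so it is no support for a difference. The groups did not overlap for 1 marker, which was lower, and for 15.7% of all tested genes, 8.13% higher and 7.55% lower. Comparing MI + UA with MI, 0 markers passed in edgeR and 0 in DESeq2, where 0% of all tested genes passed in edgeR. Fabp4 alone had an unadjusted p under 0.05, as did 3.79% of all tested genes. The groups MI + UA and MI overlapped for all 6 tested markers and did not overlap for 2.34% of all tested genes (1.18% higher and 1.16% lower). Comparing MI + UA with Sham, 2 passed, both lower (Plin4 and Fabp4), and the same 2 had an unadjusted p under 0.05. Among all tested genes 9.44% passed, 5.16% as higher and 4.27% as lower, and 21.8% had an unadjusted p under 0.05. The same 2 markers did not overlap between those groups, as did 14.3% of all tested genes, 7.83% higher and 6.46% lower.

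Markers of other heart cells moved in the same comparisons. Over all tested genes 11.4% passed in MI versus Sham, 5.82% as higher and 5.53% as lower. A count of 1 in 6 or 7 genes is near that share. Of 7 cardiomyocyte markers 6 fell in MI against Sham and 0 rose, and their summed level was 14481 to 17731 CPM in Sham, 10370 to 11125 in MI and 10813 to 13113 in MI + UA. Per 100 CPM of these cardiomyocyte markers Plin4 was at 1.12 to 1.18 CPM in Sham, 1.19 to 1.32 in MI and 0.934 to 1.25 in MI + UA. By this sum the MI rats were above the Sham rats. Myh6, the main myosin heavy chain of the rat ventricle, was at 5863 CPM in Sham and 2771 in MI on average. With Myh6 left out of the sum Plin4 was at 1.71 to 1.95 CPM per 100 in Sham, 1.62 to 1.89 in MI and 1.36 to 1.85 in MI + UA, so that the groups overlapped and the MI mean, 1.69, was below the Sham mean, 1.82. With any other of the 7 left out the MI mean stayed above the Sham mean. Of 7 endothelial markers 1 was lower in MI (Kdr, a receptor of the vascular growth factor VEGF, at -0.50 on the log2 scale) and 0 were higher. The summed endothelial level was 715 to 806 CPM in Sham, 654 to 773 in MI and 591 to 722 in MI + UA. Per 100 CPM of endothelial markers Fabp4 was at 13.6 to 20.9 CPM in Sham, 14.3 to 16.8 in MI and 11.5 to 17.2 in MI + UA, which overlapped. Macrophage markers, 7 of 8 higher in MI and 0 lower, summed to 86.7 to 101 CPM in Sham, 153 to 204 in MI and 138 to 215 in MI + UA. Of 8 fibroblast markers 6 were higher in MI and 0 lower, with sums of 1127 to 1439 CPM in Sham, 2188 to 3574 in MI and 2205 to 3685 in MI + UA. Mesothelial and epicardial, Schwann cell and lymphocyte markers each had 1 of 6 tested genes higher in MI and 0 lower, and without rats 36 and 29 the Schwann cell markers had 0 higher. The part of these cell types in the levels of Plin4 and Fabp4 was not tested. Between MI + UA and MI, 0 genes of these 7 lists passed the test in edgeR, and 1 cardiomyocyte, 1 macrophage and 1 Schwann cell marker had an unadjusted p under 0.05.

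**Figure D4:**
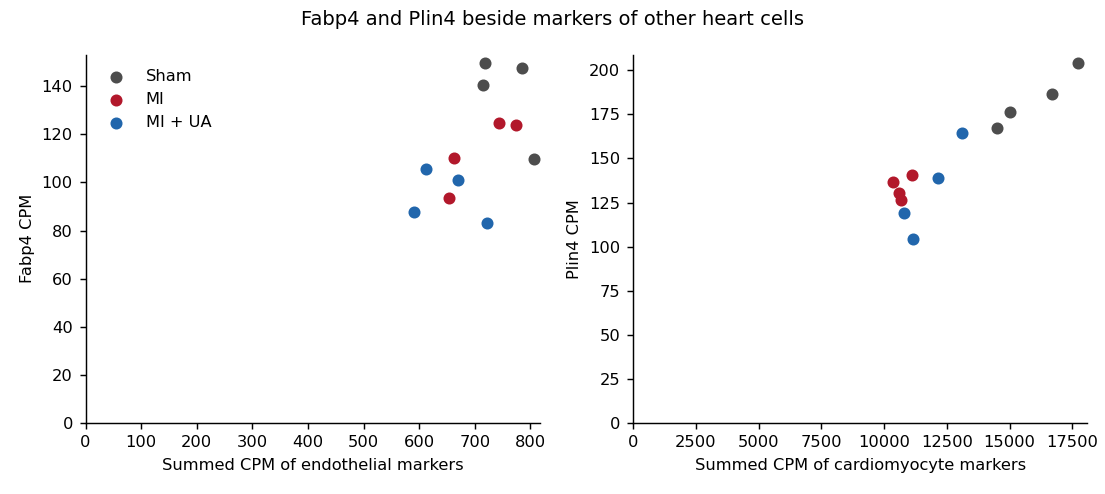
Left, Fabp4 level (CPM) against the summed level of 7 endothelial markers (CPM); right, Plin4 level (CPM) against the summed level of 7 cardiomyocyte markers (CPM); 1 point per rat, coloured by group. The Sham rats lie at the upper right for Plin4, at 14481 to 17731 CPM of cardiomyocyte markers, and the MI rats at 10370 to 11125.

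A longer list of adipocyte genes held both scarce and well-read members. Of 23 listed, 21 were matched by symbol and 17 tested. Those with too few reads were Adrb3, the beta-3 adrenergic receptor (1 read, in rat 36), Acvr1c, a receptor of the activin family (3 reads, 2 in rat 36), Slc7a10, an amino acid transporter (4 reads, 3 in rat 36), and Ffar4, a fatty acid receptor (8 reads, 0 in rat 36). MI exceeded Sham at 3 of the 17 and was below it at 1, beside 5.82% and 5.53% of all tested genes. The median log2 fold change of the 17 was -0.02 beside 0.03 over all tested genes. Ca3, a carbonic anhydrase abundant in fat and slow muscle, had 115 reads in rat 36 and 35 in rat 29, 5 to 13 in the other infarcted rats and 0 to 2 in Sham rats. Its log2 fold change in MI versus Sham was 4.65 (standard error 1.12, edgeR adjusted p = 0.00870). The call was lost without rat 36, at 2.78 (edgeR adjusted p = 0.0629), without rats 36 and 29, at 2.75 (0.0639), and with robust dispersion estimates (0.0929), the largest over its alternatives, which began at 0.000176. Scd, the stearoyl-CoA desaturase, had 87 reads in rat 36, 19 in rat 29 and 0 to 6 elsewhere. Its log2 fold change was 3.74 (standard error 1.19, edgeR adjusted p = 0.0457). The call was lost in 10 of 20 alternatives, with adjusted p from 0.00486 to 0.601. Without rat 36 the log2 fold change was 1.16 (edgeR adjusted p = 0.601). It was not called either without Sham rats 12, 17, 32 or 38 (edgeR adjusted p = 0.127, 0.0539, 0.101 and 0.136) or without MI + UA rat 64 (0.0530).

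Aqp7 and Fasn did not rest on those rats. Aqp7, the glycerol channel, fell by 0.81 on the log2 scale in MI (standard error 0.17, edgeR adjusted p = 0.00252) and by 0.73 without rats 36 and 29. Fasn, the fatty acid synthase, was 10.6 CPM in Sham and 17.3 in MI on average, a log2 difference of 0.71 (standard error 0.12, edgeR adjusted p = 0.000615), and 0.66 without those rats. Sham rats, with 0 reads of Adipoq, had 27.6 to 49.8 CPM of Aqp7 and 9.78 to 11.7 of Fasn. Which cells the reads of these genes came from was not tested. Without rats 36 and 29, the list had 1 gene higher in MI (Fasn) and 3 lower (Aqp7, Agpat2 and Pnpla3) of 16 tested. Of the 17, 1 was higher in MI + UA than in Sham (Fasn) and 2 were lower, Aqp7 and the hormone-sensitive lipase Lipe, whose log2 fold change was -0.52 (standard error 0.11, edgeR adjusted p = 0.00556). Aoc3 and Cebpa were not matched by symbol. None of the 17 passed in MI + UA versus MI (0 in edgeR, 1 at an unadjusted p under 0.05).

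Genes of lipid handling that fat shares with heart muscle were lower together in MI. Of 12 tested, 9 were lower and 0 higher than in Sham, beside 5.53% and 5.82% of all tested genes. The median log2 fold change of the 12 was -0.52 beside 0.03 over all tested genes. Without rats 36 and 29, 8 were lower, and Mgll, the monoglyceride lipase, was not called (log2 fold change -0.24, edgeR adjusted p = 0.140, against -0.29 and 0.0471 with all rats). Dgat1, which makes triglyceride, was called at an edgeR adjusted p of 0.0492 and lost in 8 of 21 alternatives, and Mgll was lost in 9 of 21. Gpam, which starts glycerolipid synthesis, fell by 0.76 (standard error 0.11, edgeR adjusted p = 0.000146). Fabp3, the heart-type fatty acid carrier, fell by 0.72, from 442 to 268 CPM (edgeR adjusted p = 0.000119), and Acsl1, an acyl-CoA synthetase, by 0.69, from 588 to 363 CPM (edgeR adjusted p = 2.59e-05). Of the other perilipins, Plin5, the form of oxidative muscle, fell by 0.60 (standard error 0.15, edgeR adjusted p = 0.00865), while Plin2 had a log2 fold change of -0.39 that did not pass (edgeR adjusted p = 0.0737). In MI + UA versus Sham 7 of the 12 were lower and 0 higher, and in MI + UA versus MI 0 passed and 0 had an unadjusted p under 0.05 (edgeR). The summed level was 3628 to 3930 CPM in Sham, 2428 to 2611 in MI and 2442 to 2998 in MI + UA.

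Genes named for brown and beige fat moved in both directions. Elovl3 and Zic1 had 0 reads in all 12 libraries. Of 8 tested, 1 was higher in MI than in Sham and 4 were lower, beside 5.82% and 5.53% of all tested genes. The median log2 fold change of the 8 was -0.49. The one that rose was Dio2, the deiodinase that activates thyroid hormone, from 2.29 to 9.05 CPM, a log2 difference of 1.99 (standard error 0.29, edgeR adjusted p = 0.000105). The largest falls among those that passed were those of Cpt1b, the carnitine palmitoyltransferase of muscle mitochondria, at -0.57 (edgeR adjusted p = 9.48e-05), and Ppargc1a, a coactivator of mitochondrial genes, at -0.55 (edgeR adjusted p = 0.00241), both abundant in heart muscle. The same counts, 1 higher and 4 lower, were found in MI + UA versus Sham, and between MI + UA and MI 0 passed, with 1 at an unadjusted p under 0.05 (edgeR). Without rats 36 and 29, MI + UA versus Sham had 3 lower. Cidea, a lipid droplet protein, was then not called in MI + UA versus Sham (edgeR adjusted p = 0.0691) or in MI versus Sham (0.0780, against 0.0432 with all rats). Its log2 fold changes were about as large without those rats, at -0.50 and -0.47, as with all rats, at -0.50 and -0.46. Over 21 alternatives it was lost in 6 and in 7 of them.

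Of 14 adipogenic regulators, the factors that set up the fat cell programme, 2 fell in MI relative to Sham and 0 rose. That count is near the 11.4% of all tested genes that passed. The median log2 fold change of the 14 was -0.05. The 2 that fell were Rxrg, a retinoid X receptor and so a possible partner of Pparg, which fell by 0.72 (standard error 0.11, edgeR adjusted p = 0.000207), and the phosphatidate phosphatase Lpin1, which fell by 0.43 (standard error 0.09, edgeR adjusted p = 0.00408). Without rats 36 and 29 there was 1 higher, Cebpd, with a log2 fold change of 1.21 (edgeR adjusted p = 0.00570), and 2 lower. Against Sham, MI + UA had 2 lower and 0 higher, beside 4.27% and 5.16% of all tested genes. Without rats 36 and 29 it had 1 lower, since Lpin1 was at an edgeR adjusted p of 0.0518 with a log2 fold change of -0.33, against -0.37 with all rats. Lpin1 was also lost without rat 29 alone (0.0649) and without Sham rat 38 (0.0630). Against MI 0 passed and 0 had an unadjusted p under 0.05 (edgeR).

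Receptors and partners of the secreted markers had enough reads to be tested, all 9 of those listed. Of the 9, 4 were higher in MI than in Sham and 0 lower, beside 5.82% and 5.53% of all tested genes. The median log2 fold change of the 9 was 0.44. C3 and Cfb belong to the complement pathway in which Cfd acts. C3, the central complement protein, rose by 2.40 on the log2 scale (standard error 0.48, edgeR adjusted p = 0.00204), and Cfb, the substrate that Cfd cuts, by 1.00 (standard error 0.25, edgeR adjusted p = 0.0115, 0.0641 without MI rat 89 and 0.0953 with robust dispersion estimates, over a range that began at 0.000363). Cap1, a resistin-binding protein, rose by 0.57 (edgeR adjusted p = 0.00303). The adiponectin receptors did not pass the test: Adipor1 had a log2 fold change of -0.16 (edgeR adjusted p = 0.251) and Adipor2 of -0.10 (edgeR adjusted p = 0.567). The leptin receptor Lepr was at 4.73 CPM in Sham and 3.10 in MI, with groups that did not overlap and an edgeR adjusted p of 0.132. MI and Sham did not overlap for 15.7% of all tested genes, 7.55% as lower in MI. In MI + UA versus Sham 3 of the 9 were higher and 0 lower, beside 5.16% and 4.27% of all tested genes. There the log2 fold change of C3 was 1.62 (edgeR adjusted p = 0.0461), a call lost in 9 of 21 alternatives, among them those without rat 36, without MI + UA rat 58 or 64 and without any 1 Sham rat (adjusted p from 0.00766 to 0.145 over all 21). That of Cfb was 0.64, which did not pass (edgeR adjusted p = 0.131). Between MI + UA and MI, 0 of the 9 passed, and 0 had an unadjusted p under 0.05 (edgeR).

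The genes whose levels were most like those of the scarce markers were sought among 12276 genes. The measure was Pearson's r over 12 libraries between a gene's log2 CPM and the mean log2 CPM of Adipoq and Plin1, given as a description, since each library's depth and the libraries of rats 36 and 29 enter every r. The median r was 0.02, and 3 genes were at 0.8 or more: Necap2, an adaptor of clathrin-coated vesicles (r = 0.86), Cenpj, a centriole protein (0.82), and Col2a1, the collagen of cartilage (0.81). Slc25a35, Arhgef11, Acan, Tchp, Ccdc130, Tut1 and RT1-N3 followed, from 0.80 down to 0.74. Col2a1 had 405 reads in rat 36, 3 in rat 12, 1 in rat 66 and 0 in the other 9 libraries. Acan, the large proteoglycan of cartilage (0.79), had 126 reads in rat 36, 35 in rat 29, 16 in rat 89, 14 in rat 58 and 0 to 6 elsewhere. Without rats 36 and 29, r was 0.72 for Necap2, 0.39 for Cenpj, 0.33 for Col2a1 and 0.47 for Acan. The library with the most adipocyte reads thus also had nearly all of the Col2a1 reads and most of the Acan reads.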

How the data were processed

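RNA was extracted from formalin-fixed, paraffin-embedded sections, depleted of ribosomal RNA by the protocol (the molecule label reads polyA RNA) and made into strand-specific paired-end libraries (12, 1 per rat, 4 rats per group). Per the labels and methods, the authors mapped reads with STAR 2.6.1c to mRatBN7.2 and deposited raw counts per Ensembl gene from htseq-count, not normalized. The 5 summary lines of htseq-count were left out; 42.9% to 48.3% of the counted reads were on genes. Another MI + UA library, set aside by the authors, is not analysed here. The libraries held 6228706 to 19031695 reads on genes, so 3 reads were worth 0.169 to 0.505 CPM.

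The 18182 genes with 10 counts or more over all libraries were fitted with edgeR 4.0.16 in R 4.3.3 (TMM scaling, quasi-likelihood test, 3 groups in one fit, Benjamini-Hochberg adjustment over all genes, threshold 0.05). Members were also compared by a two-sided exact permutation test of mean log2 CPM (prior count 1, 70 groupings, adjusted over 18 tests). Counting intervals are exact 95% intervals, and floors are 3 counts. The fit was tested on simulated data. The alternatives were DESeq2 1.42.0, its size factors, scaling without mitochondrially encoded genes, other filters, robust dispersion, 2-group fits, rat 66 counted in MI, each rat left out, and, chosen after seeing the data, rats 36 and 29 left out and each cardiomyocyte marker left out of their sum. The members and gene lists were chosen with earlier results of these data known. Of each other list of fat-related genes, up to 3 called genes with the largest change in MI versus Sham were named by rule, lists of other cell types were given as counts and ranges, and also named were the 10 genes most like Adipoq and Plin1 with an average log2 CPM of at least 0. Adrb3, Acvr1c, Slc7a10, Ffar4, Plin2, Plin5, Lipe, Elovl3, Zic1, Cebpd, Agpat2, Pnpla3, Fasn, Kdr, Myh6, Mgll, Dgat1, Cidea, Cap1, Adipor1, Adipor2 and Lepr were chosen after their values were seen. A gene that the rule would name is not reported here. Cidec was to join the likeness measure but had too few counts. Car3 was matched through its RefSeq synonym Ca3. Rats are separate animals, and no sequencing batch is given in the sources used here. The sources differ on the dose of UA and on when treatment began. No gene lengths of the files' build were used here.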

Additional observations from a re-analysis of the deposited data

Results flagged for a closer look

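In groups of 4 rats, a rat was looked at again where its gap to the nearest other rat, divided by the group's whole range of CPM, was above Dixon's critical value for 4 samples (95% level). Of 25 groups of 4 rats with any reads of a marker, 7 were above it. Chance gives about 1 in 20 groups for continuous values, a rate that does not hold for groups with a few reads and 3 rats at 0, as in 5 of the 7. All 7 concern rat 36 or rat 29. Rat 36 was the highest MI rat in Adipoq (ratio 0.962, 30 reads in the group) and Plin1 (0.861, 19 reads). In Lep (ratio 1, 1 read in the group) and Retn (ratio 1, 2 reads) it was the only MI rat with a read. Rat 29 was the only MI + UA rat with a read of Adipoq (ratio 1, 5 reads), Retn (ratio 1, 1 read) and Ucp1 (ratio 1, 2 reads). A ratio of 1 means that the other 3 rats were all at 0, which a single read is enough to give. None of the 12 groups of Plin4, Fabp4, Pparg and Cfd was above the critical ratio; the nearest was Pparg in MI + UA, where rat 58 was highest (0.814).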

How the results depend on the processing

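Over 364 alternative values of the 18 log2 fold changes, 351 kept their direction and side of the threshold, 2 passed it and 11 changed sign. The falls of Plin4 in MI and in MI + UA versus Sham and of Fabp4 in MI + UA versus Sham passed the test in all 21 alternatives. The number of markers called in MI versus Sham rose from 1 to 2 with no filter on low counts, when Adipoq was added, and leaving out each rat gave 1 to 2, the 2 being without Sham rat 17, when Fabp4 was added. All values that changed sign were of differences that did not pass the test. Plin1 in MI + UA versus MI changed to 0.55 without rats 36 and 29. With 1 rat left out, Plin1 in MI + UA versus MI ran from -1.31 (without rat 29) to 1.28 (without rat 36), Cfd in MI versus Sham ran from -0.21 to 0.29, Plin4 in MI + UA versus MI from -0.14 to 0.078, Pparg in MI + UA versus Sham from -0.050 to 0.23, and Pparg in MI versus Sham from -0.19 to 0.10; the cause was not tested. Adipoq had too few reads for a value without rat 36 and in the fit of MI + UA and Sham alone, and was at 0 in both of these groups without rat 29. A filter by expression (edgeR's filterByExpr) removed Adipoq and Plin1. No paired analysis was possible because each rat belongs to 1 group and rat numbers are not shared. Depth limits the 6 scarce genes most: the exact two-sided 95% upper limit for 0 reads was 0.208 to 0.621 CPM in a library, and the floor of 3 reads 0.169 to 0.505 CPM.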
